A study of Rattus norvegicus with 12 samples.

Results

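The genes described here build, cross-link, anchor, pull on or take apart the actin cytoskeleton. They were chosen by name, and the list holds 45 genes: 2 non-muscle actins, contractile thin filament and myosin II genes, cross-linkers, focal adhesion and membrane linker proteins, nucleation and elongation factors, monomer binding, severing and capping proteins, and the signalling genes Rhoa, Rac1, Cdc42, Rock1, Rock2 and Limk1. Of the 45, 42 had a probe set that the array's annotation gave to that gene alone, out of 14224 genes so named on the array, and each was followed on its brightest probe set, by mean signal over the 12 arrays. All 42 were bright enough to be tested. Apart from the array's β-actin control probe sets, the other 3, Actb, Cfl1 and Tmsb10, lay only on probe sets shared with other gene symbols.

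The study cultured astrocytes, the glial support cells of nerve tissue, from the rat optic nerve head, where the axons of the eye leave it. It measured their total RNA on 12 one-colour Affymetrix arrays. The groups were EGF for 4 h, its control at 4 h, EGF for 12 h and its control at 12 h, with 3 arrays each. EGF is epidermal growth factor, the ligand of a receptor tyrosine kinase. In both experiments the controls were sister cultures grown without it. All groups share the primary culture background, and the sources used here do not give the strain, the age of the animals or the EGF dose. The groups came from the sample titles, since the description field reads control for all 12. Nothing says that replicates came from separate cultures, so p-values measure the spread between these samples, which may be technical. In bulk RNA, fewer cells of a type and less RNA per cell cannot be told apart.

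Actin monomers polymerise into filaments that cells use in 2 broad ways. In contractile bundles, tropomyosins, calponins, caldesmon and transgelin decorate the filament, α-actinin cross-links it, and myosin II, switched on through its light chains, pulls on it from focal adhesions. At a moving edge, the Arp2/3 complex and Ena/VASP proteins grow new filaments, profilin and thymosins handle monomers, gelsolin family proteins sever or cap filaments, and ezrin, radixin and moesin tie filaments to the membrane. Astrocytes use both when they spread, migrate or stiffen.

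Signals are MAS5 intensities, and differences are given as log2 fold changes of signal plus an offset of 24.4, EGF over control, with the standard error (SE) from one limma fit over all 12 arrays. A gene "passed the threshold", and is said to have risen or fallen, when its p adjusted over all 18625 tested probe sets was under 0.05. Probe sets differ in brightness for reasons other than RNA amount, so levels were compared within a gene only. Fold changes below stand beside the median of all tested probe sets, which was -0.15 at 4 h and -0.062 at 12 h. With each array centred on its own median, the 4 h value became 0.045.

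The arrays fell into sets that the labels do not name. On the 6 arrays of the 4 h experiment the β-actin control probe sets gave a 3' to 5' signal ratio of 1.20 to 1.61, and on the 12 h arrays other than EGF replicate 3 it was 11.1 to 21.7, against 1.24 on that array. The replicate 3 pair at 4 h differed from the other 4 h arrays in its hybridisation controls. Of the astrocyte markers listed, vimentin (Vim) was bright in every group. Slc1a3 and S100b were also bright enough to test, and they passed the threshold for an EGF effect at neither time. Gfap averaged 195.2 and 215.3 in EGF and control cultures at 4 h and 130.1 and 200.8 at 12 h, under the brightness limit of 215.4 for testing. Aqp4, Slc1a2 and Aldh1l1 were under it too, and Aldoc, which was tested, fell at 12 h, with means of 31 in EGF cultures and 2655 in controls. The fibroblast collagens Col1a1, Col1a2 and Col3a1 averaged between 33587 and 100304 in all groups, and no marker of any cell type was at 0.

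After 4 h of EGF, 11 of the 42 genes passed the threshold, 7 higher and 4 lower. That is 26.2% of the genes, against 27.8% of all tested probe sets (11.4% higher and 16.5% lower). At least 2-fold changes among them numbered 3, all higher, where 11.8% of all probe sets had one. The genes that rose were Ezr, Pxn, Vasp, Msn, Actn1, Cnn3 and Tpm3, and those that fell were Myl9, Myh10, Pfn2 and Rdx. EGF and control arrays did not overlap for 10 genes that were higher and 8 that were lower, and 48.1% of all probe sets had no overlap. The median log2 fold change of the 42 genes was -0.046. The share that passed at 4 h was thus near the background of the whole array. With each array centred on its median, 7 were higher and 1 lower, since Myh10, Pfn2 and Rdx no longer passed.

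After 12 h of EGF, 26 of the 42 genes passed the threshold, 19 higher and 7 lower. This was 61.9%, against 36.1% of all tested probe sets (15.3% higher and 20.8% lower). The share was larger among bright probe sets. Of the 12417 above the 60th percentile of mean signal, tested alone, 2528 were higher and 3173 lower, and 40 of the 42 genes were among them. The genes were also chosen with earlier results of these data known. Changes of at least 2-fold were seen in 10 genes that rose and 3 that fell, against 17.3% of all probe sets. EGF and control arrays did not overlap for 21 genes that were higher and 7 that were lower, against 48% of all probe sets. The median log2 fold change of the 42 genes was 0.49. The 10 genes of one direction at both times were Cnn3, Tpm3, Actn1, Pxn, Msn, Ezr and Vasp, higher, and Myl9, Myh10 and Pfn2, lower. With array set as a block, EGF replicate 3 at 12 h, in a set of its own, adds nothing to the 12 h effect. Under that block 32 genes passed at 12 h, the 26 and also Vcl, Rac1, Actg1 and Myh9, higher, and Rock1 (-0.76, against -0.13 without the block) and Tln1, lower. At 4 h 17 passed, the 11 and also Fscn1, Pfn1 and Rock2, higher, and Acta2, Lasp1 and Rock1, lower. Of the genes that the block added at 12 h, only Rac1 passed with EGF replicate 3 left out and no block (adjusted p = 0.0202). The plot of the EGF effect on each gene shows both times side by side.

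**Figure D1:**
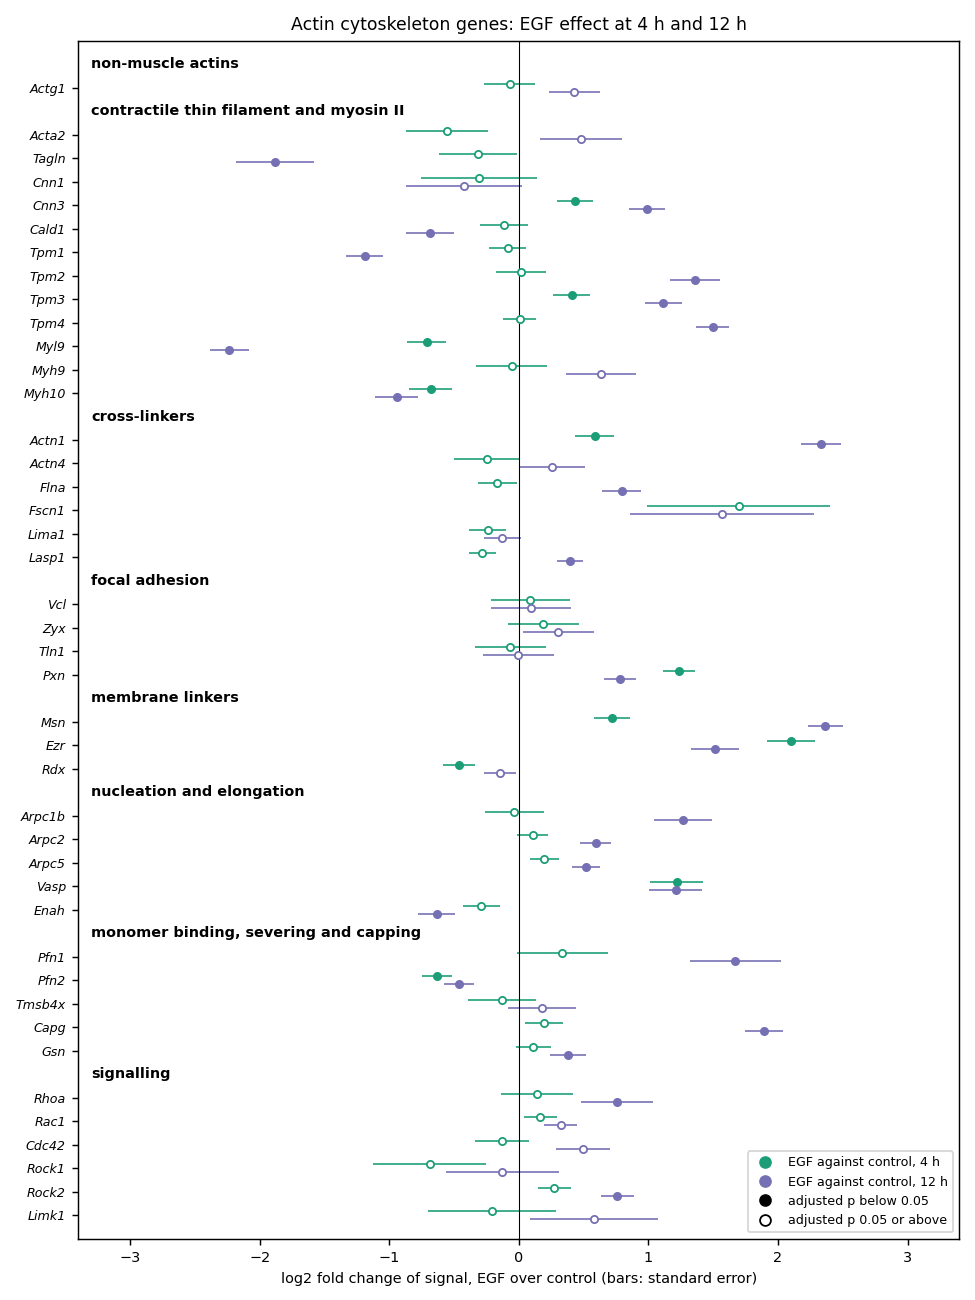
Log2 fold change of signal, EGF over control, for the 42 genes at 4 h (green) and 12 h (purple), grouped by role, with standard errors as bars and filled points where the adjusted p was under 0.05. Myl9, Tagln and Tpm1 lie farthest left at 12 h (-2.23, -1.88 and -1.19), and Msn and Actn1 farthest right (2.37 and 2.33).

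The non-muscle actins themselves did not pass the threshold on a probe set of their own. Actg1, γ-actin, had 4 h signals of 61128, 67599 and 97551 on the EGF arrays, against 72469.8, 76198 and 84716 on the control arrays. Its 12 h signals were 63347, 107119 and 76498 on the EGF arrays, against 56683, 65013 and 57882 on the control arrays. The groups overlapped at both times, and the spread among EGF arrays was wider than among controls. For Actg1, the log2 fold change was -0.072 (SE 0.20, adjusted p = 0.829) at 4 h and 0.43 (SE 0.20, adjusted p = 0.109) at 12 h. Actb, β-actin, shared both of its probe sets with Actg1. The brighter of these gave 78833, 87550.3 and 124683 on the EGF arrays, against 84723, 98471 and 100989 on the control arrays at 4 h, and 76924, 123634 and 89934 on the EGF arrays, against 77241, 73399 and 71130.5 on the control arrays at 12 h, again with overlap at both times, and it did not pass. The other did not pass at 4 h (-0.095), but rose at 12 h by 0.72 (SE 0.23, adjusted p = 0.0259). It gave 45759, 82304 and 92168 on the EGF arrays at 12 h, against 44658, 45097 and 38884 on the control arrays, which did not overlap. The array's β-actin control probe sets were not tested. At 12 h the 3' one gave 58430, 89520 and 83469 on the EGF arrays, against 56937, 55271 and 48720 on the control arrays, without overlap. The middle and 5' ones overlapped at 12 h, and all of them overlapped at 4 h.

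The contractile thin filament and myosin II genes split by gene, and the split was within families. At 12 h, 4 of the 12 rose, 5 fell and 3 did not pass, and at 4 h 2 rose, 2 fell and 8 did not pass. Counts by role, here and below, stand beside 36.1% of all tested probe sets past the threshold at 12 h and 27.8% at 4 h. Myl9, the regulatory light chain of smooth muscle and non-muscle myosin II, fell at both times. Myl9 gave 4 h signals of 15302, 17854 and 17658 on the EGF arrays, against 27612, 29261 and 26288 on the control arrays. Myl9 at 12 h gave 1990.4, 1627 and 1554 on the EGF arrays, against 9029, 9296 and 6469 on the control arrays. Every EGF array lay below every control array at each time. For Myl9, the log2 fold change was -0.71 (SE 0.15, adjusted p = 0.00345) at 4 h and -2.23 (SE 0.15, adjusted p = 1.44e-07) at 12 h. The 12 h value is a 4.71-fold lower signal. Tagln, transgelin or SM22, an actin-bundling protein of smooth muscle, fell at 12 h. Tagln gave 4 h signals of 34196, 40717 and 42343 on the EGF arrays, against 45499, 51932 and 48327 on the control arrays. Tagln at 12 h gave 2014, 3316 and 3387 on the EGF arrays, against 15457, 13173 and 5666 on the control arrays. The control arrays at 12 h were spread over more than a 2-fold range, with replicate 3 lowest, yet all were above the EGF arrays. For Tagln, the log2 fold change was -0.32 (SE 0.30, adjusted p = 0.479) at 4 h and -1.88 (SE 0.30, adjusted p = 2.94e-04) at 12 h.

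The 4 tropomyosin genes, whose coiled-coil products lie along the filament and set which proteins bind it, moved in opposite directions at 12 h. Tpm1 gave 4 h signals of 35031, 38948 and 45942 on the EGF arrays, against 39465, 44415 and 42754 on the control arrays. Tpm1 at 12 h gave 10593, 12043 and 8321 on the EGF arrays, against 22872, 23409 and 23634 on the control arrays. Tpm1 overlapped at 4 h and was lower on every EGF array at 12 h. For Tpm1, the log2 fold change was -0.086 (SE 0.14, adjusted p = 0.708) at 4 h and -1.19 (SE 0.14, adjusted p = 2.93e-05) at 12 h. Tpm2 gave 4 h signals of 39173, 43763 and 44311 on the EGF arrays, against 40770.5, 44789.9 and 40189.5 on the control arrays. Tpm2 at 12 h gave 50746, 65140.4 and 38591 on the EGF arrays, against 24314, 20908 and 14861 on the control arrays. Tpm2 was the reverse of Tpm1 at 12 h, with EGF replicate 2 highest. For Tpm2, the log2 fold change was 0.017 (SE 0.20, adjusted p = 0.964) at 4 h and 1.36 (SE 0.20, adjusted p = 1.26e-04) at 12 h. Tpm3 gave 4 h signals of 30884, 32313 and 31952 on the EGF arrays, against 24289, 29029.8 and 19384 on the control arrays. Tpm3 at 12 h gave 39931, 43803 and 37195 on the EGF arrays, against 20013, 18652 and 17147 on the control arrays. All EGF arrays were above all control arrays for Tpm3 at both times, narrowly at 4 h. For Tpm3, the log2 fold change was 0.41 (SE 0.14, adjusted p = 0.047) at 4 h and 1.11 (SE 0.14, adjusted p = 4.47e-05) at 12 h. The 4 h call of Tpm3 was lost when any of 8 arrays was left out, among them control replicate 3 at 4 h, without which the value was 0.26. Tpm4 gave 4 h signals of 34215, 38492 and 36986 on the EGF arrays, against 36363, 39145 and 33768 on the control arrays. Tpm4 at 12 h gave 45221, 60074 and 45235 on the EGF arrays, against 16976, 17868 and 18016 on the control arrays. Tpm4 was alike at 4 h and clearly apart at 12 h. For Tpm4, the log2 fold change was 0.0064 (SE 0.13, adjusted p = 0.979) at 4 h and 1.5 (SE 0.13, adjusted p = 1.32e-06) at 12 h.

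Several tropomyosin genes had more than 1 tested probe set, and the direction was shared by most of them. Of 5 for Tpm1, 4 were lower with EGF at 12 h and none higher, with log2 fold changes of -1.91 to -0.41. Of 10 for Tpm3, 7 were higher and none lower, from -0.49 to 2.24. Both for Tpm4 were higher, at 1.5 and 2.20, while for Tpm2 1 of 2 was, at 1.36 and 0.50. Which tropomyosin isoforms each probe set reads was not tested.

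**Figure D2:**
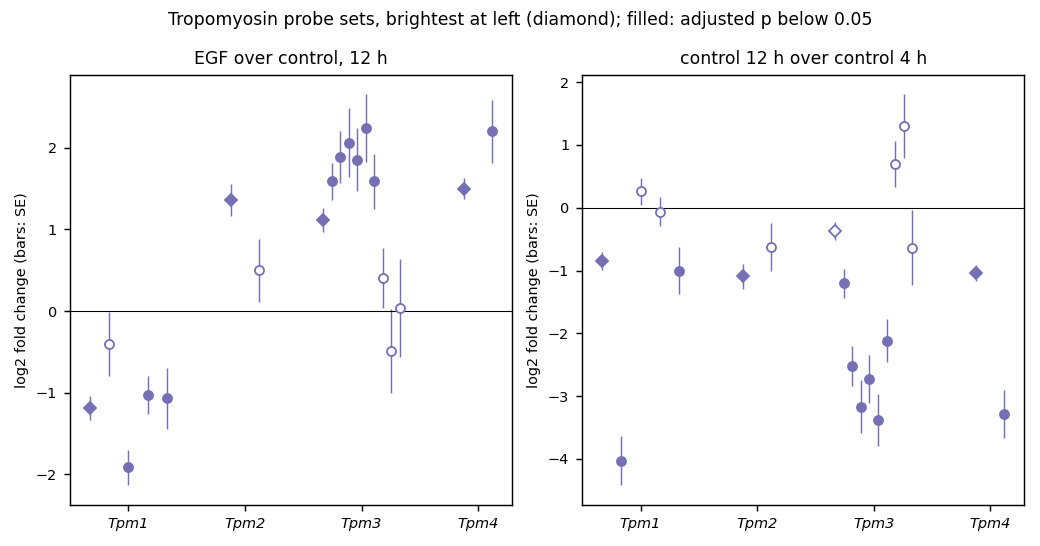
Log2 fold change of every tested tropomyosin probe set, EGF over control at 12 h (left) and control at 12 h over control at 4 h (right), with standard errors as bars, the brightest probe set of each gene as a diamond, and filled points where the adjusted p was under 0.05. At 12 h of EGF all Tpm1 points lie below 0 and both Tpm4 points above it, while in the control comparison Tpm1 values span -4.03 to 0.26.

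Cald1, caldesmon, which holds myosin off the filament, fell at 12 h, with 27441 ± 4186 in EGF cultures and 44019.6 ± 5277 in controls (SD, n = 3 each), and a log2 fold change of -0.69 (SE 0.19, adjusted p = 0.011). This call was lost without control replicate 3 at 12 h (-0.59, adjusted p = 0.0557). Cnn3, the calponin of non-muscle cells, rose at both times, by 0.43 and 0.99. Its 4 h call was lost without any 1 of 6 arrays, with values of 0.37 to 0.45. Myh10, a non-muscle myosin II heavy chain, fell at both times, at -0.68 and -0.94, while Myh9, another one, was at -0.057 and 0.63 and did not pass. Acta2, smooth muscle α-actin, had 4 h signals of 11677, 13675 and 9389 on the EGF arrays, against 20834, 19218 and 11925 on the control arrays. Its 12 h signals were 939.6, 1089.7 and 2026 on the EGF arrays, against 1086, 1188 and 577 on the control arrays. The EGF and control arrays overlapped at both times. At 4 h only EGF replicate 2 (13675) lay above a control array, replicate 3 (11925). For Acta2, the log2 fold change was -0.56 (SE 0.32, adjusted p = 0.22) at 4 h and 0.48 (SE 0.32, adjusted p = 0.258) at 12 h. With array set as a block, Acta2 passed at 4 h (-0.56, adjusted p = 0.0336). Cnn1, the smooth muscle calponin, did not pass either, at -0.31 and -0.42. Its 12 h control signals were 382, 404 and 84. Without the last of these, control replicate 3, Cnn1 passed at 12 h, at -1.07 (adjusted p = 0.0222).

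Beside these falls stand markers of other cell types that carry contractile or matrix genes. Of 9 smooth muscle and pericyte markers 5 were bright enough to test; at 12 h Lmod1 and Pdgfrb fell and Cspg4 rose, at 4 h Lmod1 fell, and Myh11 and Rgs5 were too dim. The summed signal of the 9 ran from 5622 to 7505 on EGF arrays and 7008 to 8270.4 on control arrays at 4 h. At 12 h it ran from 1891 to 3229 on EGF arrays and from 2755 to 3485 on control arrays. Of 6 fibroblast and meningeal markers, all tested, 2 fell at 4 h and 5 at 12 h, with summed signals of 207854 to 223058 on EGF arrays and 240886 to 272274 on control arrays at 4 h. At 12 h the sums were 114385 to 182984 on EGF arrays and 207612 to 248351 on control arrays. Their part in the result was not tested. Among the few tested markers of the other types, Tek, Mbp and Cnp fell at both times and Cd68 rose at 12 h, while no neuron marker reached the limit for testing.

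Serum response factor drives many contractile genes through the CArG box, so the RefSeq promoter windows of build GRCr8, 250 bases before to 50 after the annotated start, were searched for it on both strands. The table held 45 windows for 38 of the 45 genes, and Capg, Myl9, Actn4, Lasp1, Actb, Rac1 and Tagln were not among them. A CArG box was in 2 of the 45 windows (4.44%), those of Actg1 and Lima1, against 1.64% of 33469 windows of all genes. A looser form, in which 1 of the 6 central bases may be G or C, was added after the strict result was known. With it 8 windows (17.8%) of 6 genes matched, against 9.42% of all windows. Shown here, with the matching letters in capitals, are the 2 windows with the strict box and those with the looser form in genes that passed the threshold in a comparison of this study. A match is a run of letters, and binding was not measured.
Actg1 (chr10:106120902-106121201, minus strand): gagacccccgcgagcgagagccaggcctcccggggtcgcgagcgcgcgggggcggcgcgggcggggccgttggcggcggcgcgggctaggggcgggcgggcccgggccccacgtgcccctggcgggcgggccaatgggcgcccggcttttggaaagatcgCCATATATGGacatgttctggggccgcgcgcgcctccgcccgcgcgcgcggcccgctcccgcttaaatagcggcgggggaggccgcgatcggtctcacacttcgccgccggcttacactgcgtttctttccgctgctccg
Lima1 (chr7:132880294-132880593, minus strand): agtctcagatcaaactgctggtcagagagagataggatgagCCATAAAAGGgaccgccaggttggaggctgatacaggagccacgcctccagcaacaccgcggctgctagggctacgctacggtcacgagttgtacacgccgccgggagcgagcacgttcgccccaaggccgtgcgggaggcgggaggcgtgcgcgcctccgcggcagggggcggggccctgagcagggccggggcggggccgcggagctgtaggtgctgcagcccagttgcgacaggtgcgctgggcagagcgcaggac
Acta2 (chr1:241172454-241172753, minus strand): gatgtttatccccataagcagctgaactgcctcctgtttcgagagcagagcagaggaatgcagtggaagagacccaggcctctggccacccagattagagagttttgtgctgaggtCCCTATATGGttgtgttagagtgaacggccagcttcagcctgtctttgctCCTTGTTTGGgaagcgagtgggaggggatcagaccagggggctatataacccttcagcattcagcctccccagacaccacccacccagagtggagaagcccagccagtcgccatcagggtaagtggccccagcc
Tpm3 (chr2:177814633-177814932, plus strand): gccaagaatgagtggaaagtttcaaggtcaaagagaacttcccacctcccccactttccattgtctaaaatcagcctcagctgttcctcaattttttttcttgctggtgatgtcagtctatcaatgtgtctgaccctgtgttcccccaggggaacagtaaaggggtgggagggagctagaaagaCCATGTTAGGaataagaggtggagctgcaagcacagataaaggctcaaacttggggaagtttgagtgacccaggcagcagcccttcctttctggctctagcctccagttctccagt
Tpm3 (chr2:177821115-177821414, plus strand): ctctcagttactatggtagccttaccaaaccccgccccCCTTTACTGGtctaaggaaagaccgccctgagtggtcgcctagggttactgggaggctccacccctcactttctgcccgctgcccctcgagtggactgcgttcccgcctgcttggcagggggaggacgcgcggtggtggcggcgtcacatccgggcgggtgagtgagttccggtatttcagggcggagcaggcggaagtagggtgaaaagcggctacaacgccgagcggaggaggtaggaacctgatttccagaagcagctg
Vasp (chr1:88052906-88053205, minus strand): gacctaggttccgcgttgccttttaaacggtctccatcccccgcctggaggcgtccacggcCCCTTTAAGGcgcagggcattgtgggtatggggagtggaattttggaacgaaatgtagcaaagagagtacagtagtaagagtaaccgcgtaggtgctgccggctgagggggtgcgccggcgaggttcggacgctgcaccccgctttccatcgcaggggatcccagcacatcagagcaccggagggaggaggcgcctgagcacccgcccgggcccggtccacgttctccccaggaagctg

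Neither Actg1 nor Lima1, whose windows hold the strict box, passed the threshold with EGF. Acta2, with a pair of the looser matches, did not pass either, and Tpm3 and Vasp, with looser matches, rose. Zyx, with the looser form in a pair of windows, did not pass and is not shown.

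Among the cross-linkers, 3 of 6 rose at 12 h and none fell, and 1 rose at 4 h. Actn1, the α-actinin of stress fibres and focal adhesions, rose at both times. Actn1 gave 4 h signals of 25908, 28168 and 23580.0 on the EGF arrays, against 17393, 20615 and 14242 on the control arrays. Actn1 at 12 h gave 21820.2, 25111 and 25386 on the EGF arrays, against 5409.7, 4911 and 4047 on the control arrays. The arrays did not overlap at either time, and at 12 h the control level was lower than any other group. For Actn1, the log2 fold change was 0.58 (SE 0.15, adjusted p = 0.012) at 4 h and 2.33 (SE 0.15, adjusted p = 1.06e-07) at 12 h. The 12 h value is a 5.04-fold higher signal. The 4 h call of Actn1 was lost without EGF replicate 2 (0.52, adjusted p = 0.0559) or control replicate 3 (0.45, adjusted p = 0.0562). Its relative Actn4 was at -0.25 and 0.26 and passed at neither time. Flna, filamin A, which joins filaments into a gel, averaged 24897 ± 5209 with EGF and 14161 ± 1151 in controls at 12 h, a log2 fold change of 0.80 (SE 0.15, adjusted p = 0.00106). Lasp1, a LIM and SH3 protein of adhesions, also rose at 12 h, by 0.39.

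Fscn1, fascin, which packs filaments into the bundles of filopodia, was spread widely over the arrays. Its 4 h signals were 2719.6, 3392 and 2141 on the EGF arrays, against 1169, 776 and 600.1 on the control arrays. At 12 h, Fscn1 gave 351, 462 and 5076 on the EGF arrays, against 412, 221 and 310.1 on the control arrays. All EGF arrays were higher at 4 h, while at 12 h EGF replicate 3 alone was far above the rest. For Fscn1, the log2 fold change was 1.70 (SE 0.71, adjusted p = 0.0931) at 4 h and 1.57 (SE 0.71, adjusted p = 0.102) at 12 h. Without that array the 12 h value was 0.37 (adjusted p = 0.367). Without it, the 4 h difference passed with the same log2 fold change of 1.70 (adjusted p = 2.11e-04).

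Of the 4 focal adhesion genes, only Pxn, paxillin, a scaffold phosphorylated as adhesions form, passed the threshold. Pxn gave 4 h signals of 14270.5, 14777 and 13824 on the EGF arrays, against 6090.3, 6172 and 5869 on the control arrays. Pxn at 12 h gave 23030.2, 22448 and 17556 on the EGF arrays, against 11129.6, 12982 and 12304 on the control arrays. Replicates of Pxn were tight at 4 h, where EGF arrays were more than 2-fold above controls. For Pxn, the log2 fold change was 1.24 (SE 0.12, adjusted p = 8.19e-06) at 4 h and 0.78 (SE 0.12, adjusted p = 2.63e-04) at 12 h. The adhesion plaque proteins Vcl (vinculin), Zyx (zyxin) and Tln1 (talin) were between -0.066 and 0.19 at 4 h and between -0.0043 and 0.31 at 12 h, with SE of 0.27 to 0.31. These errors leave room for differences in either direction. With array set as a block, Vcl and Tln1 passed at 12 h, at 0.40 (adjusted p = 0.00426) and -0.38 (adjusted p = 0.0432). With EGF replicate 3 at 12 h left out and no block, the values were the same and neither passed (adjusted p = 0.275 and 0.142).

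The 3 ERM proteins, which tie filaments to the plasma membrane and stand in for one another in many cells, did not move together. Ezr gave 4 h signals of 8533, 8476 and 6031 on the EGF arrays, against 1997, 1826 and 1471 on the control arrays. Ezr at 12 h gave 9836, 11537 and 9303 on the EGF arrays, against 4211, 3652 and 2908 on the control arrays. Ezr, ezrin, was higher on every EGF array at both times. For Ezr, the log2 fold change was 2.10 (SE 0.18, adjusted p = 2.24e-06) at 4 h and 1.51 (SE 0.18, adjusted p = 2.72e-05) at 12 h. Its 4 h value, a 4.29-fold higher signal, was the highest of the 42 genes at that time. Msn gave 4 h signals of 25616, 28958 and 25799.7 on the EGF arrays, against 15697, 16429.8 and 16688 on the control arrays. Msn at 12 h gave 29033, 41979 and 37311 on the EGF arrays, against 6245, 7072 and 7445 on the control arrays. For Msn, moesin, EGF arrays were again all above controls, and the 12 h gap was the wider. For Msn, the log2 fold change was 0.72 (SE 0.14, adjusted p = 0.00172) at 4 h and 2.37 (SE 0.14, adjusted p = 3.85e-08) at 12 h. At 12 h this was a 5.16-fold higher signal. Rdx, radixin, averaged 6406 ± 819.7 with EGF and 8798 ± 237 in controls at 4 h and fell there, with a log2 fold change of -0.46 (SE 0.12, adjusted p = 0.0128). This call was lost without EGF replicate 3 at 4 h (-0.37, adjusted p = 0.0512), and Rdx was at -0.14 at 12 h, where it did not pass.

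All 5 nucleation and elongation genes passed at 12 h, 4 higher and 1 lower, and 1 rose at 4 h. Vasp, which feeds monomers to growing filament ends, rose at both times. Vasp gave 4 h signals of 17228, 18074 and 11679.6 on the EGF arrays, against 7579, 7433 and 5089 on the control arrays. Vasp at 12 h gave 15412, 16550.3 and 11378 on the EGF arrays, against 6759, 6109.6 and 5651 on the control arrays. Replicate 3 was lowest in each group, and the EGF arrays were still all above the controls. For Vasp, the log2 fold change was 1.22 (SE 0.20, adjusted p = 5.97e-04) at 4 h and 1.21 (SE 0.20, adjusted p = 4.32e-04) at 12 h. Enah, its relative Mena, went the other way at 12 h, with 1812 ± 132 in EGF cultures and 2835 ± 319 in controls, a log2 fold change of -0.64 (SE 0.14, adjusted p = 0.00311). The next brightest Enah probe set was at 0.24 at 12 h and did not pass. The 3 listed subunits of the Arp2/3 complex, which starts branches on existing filaments, rose at 12 h. Of 5 further subunits that were tested, Arpc4 and Arpc5l rose at 12 h by 0.82 and 0.55, while Actr2, Arpc1a and Arpc3 were between 0.086 and 0.36 and did not pass. Arpc1b gave 4 h signals of 27446, 30436 and 34647 on the EGF arrays, against 35080.5, 29366 and 30241 on the control arrays. Arpc1b at 12 h gave 15036, 19897 and 34467 on the EGF arrays, against 8865, 8717 and 9540.1 on the control arrays. Arpc1b overlapped at 4 h, and at 12 h the EGF arrays were all higher, replicate 3 by the most. For Arpc1b, the log2 fold change was -0.035 (SE 0.23, adjusted p = 0.93) at 4 h and 1.27 (SE 0.23, adjusted p = 6.80e-04) at 12 h. Without EGF replicate 3 the 12 h value was 0.94 and still passed. Arpc2 and Arpc5 rose by 0.59 and 0.52 at 12 h.

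Among the monomer binding, severing and capping genes, 3 of 5 rose and 1 fell at 12 h, and 1 fell at 4 h. Capg, which caps filament ends in response to calcium, was apart only at 12 h. Capg gave 4 h signals of 6521, 6940.2 and 5660.3 on the EGF arrays, against 5865, 5936 and 4929.7 on the control arrays. Capg at 12 h gave 12456, 15417 and 16908 on the EGF arrays, against 3693, 3787 and 4471 on the control arrays. The lowest EGF array at 12 h was more than 2-fold above the highest control. For Capg, the log2 fold change was 0.19 (SE 0.15, adjusted p = 0.368) at 4 h and 1.89 (SE 0.15, adjusted p = 4.62e-07) at 12 h. Gsn, gelsolin, of the same family, rose by 0.38 at 12 h (adjusted p = 0.0446), a call lost without any 1 of 7 arrays, with values of 0.30 to 0.42. Pfn1, profilin, which loads monomers with ATP for assembly, rested in part on 1 array. Pfn1 gave 4 h signals of 42969, 48409 and 41279.5 on the EGF arrays, against 36791, 41571 and 28072 on the control arrays. Pfn1 at 12 h gave 14358, 19402 and 54831 on the EGF arrays, against 7815, 8541 and 7079.6 on the control arrays. EGF replicate 3 was far above the other EGF arrays at 12 h, though these too were above the controls. For Pfn1, the log2 fold change was 0.33 (SE 0.35, adjusted p = 0.53) at 4 h and 1.67 (SE 0.35, adjusted p = 0.00224) at 12 h. Without that array the 12 h value was 1.10. Pfn2, the second profilin, fell at both times, by 0.63 and 0.46, but its next brightest probe set was at 0.090 at 12 h and did not pass. Tmsb4x, the thymosin that stores monomers, was at -0.13 and 0.18 and did not pass.

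Cfl1, cofilin, and Tmsb10 were read only together with similar sequences. The probe set that Cfl1 shares with Cfl1l1 gave 9105, 13804 and 38701 on the EGF arrays, against 6681, 6921 and 5484 on the control arrays at 12 h. The one that Tmsb10 shares with a pseudogene gave 702, 1071 and 9424 on the EGF arrays, against 596, 868 and 473 on the control arrays. The first rose, by 1.42 (adjusted p = 0.00777), and the second, at 1.59 (adjusted p = 0.0891), did not pass. In both, EGF replicate 3 stood far above the other arrays of its group.

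Rock2, a kinase that acts on myosin light chains and their phosphatase, averaged 4598 ± 409.9 with EGF and 2701 ± 169 in controls at 12 h, a log2 fold change of 0.76 (SE 0.13, adjusted p = 4.58e-04). Rhoa, a GTPase that activates it, gave 12 h signals of 8641, 9738 and 17564 on the EGF arrays, against 6287, 6818 and 7107 on the control arrays. EGF replicate 3 was again highest, at 12 h. The log2 fold change of Rhoa at 12 h was 0.76 (SE 0.28, adjusted p = 0.0478), and without that array it was 0.45 (adjusted p = 0.153). Its call was lost without any 1 of 9 arrays, that one included, with values of 0.45 to 0.87. With array set as a block, Rhoa was at 0.45 at 12 h and passed (adjusted p = 0.00149). Rac1, Cdc42, Rock1 and Limk1, which carry signals to the moving edge, to filopodia, to myosin and to cofilin, were between -0.13 and 0.58 at 12 h and did not pass. The next brightest probe set of Rac1 rose at 12 h by 1.51 (adjusted p = 0.00204), against 0.32 on the brightest.

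**Figure D3:**
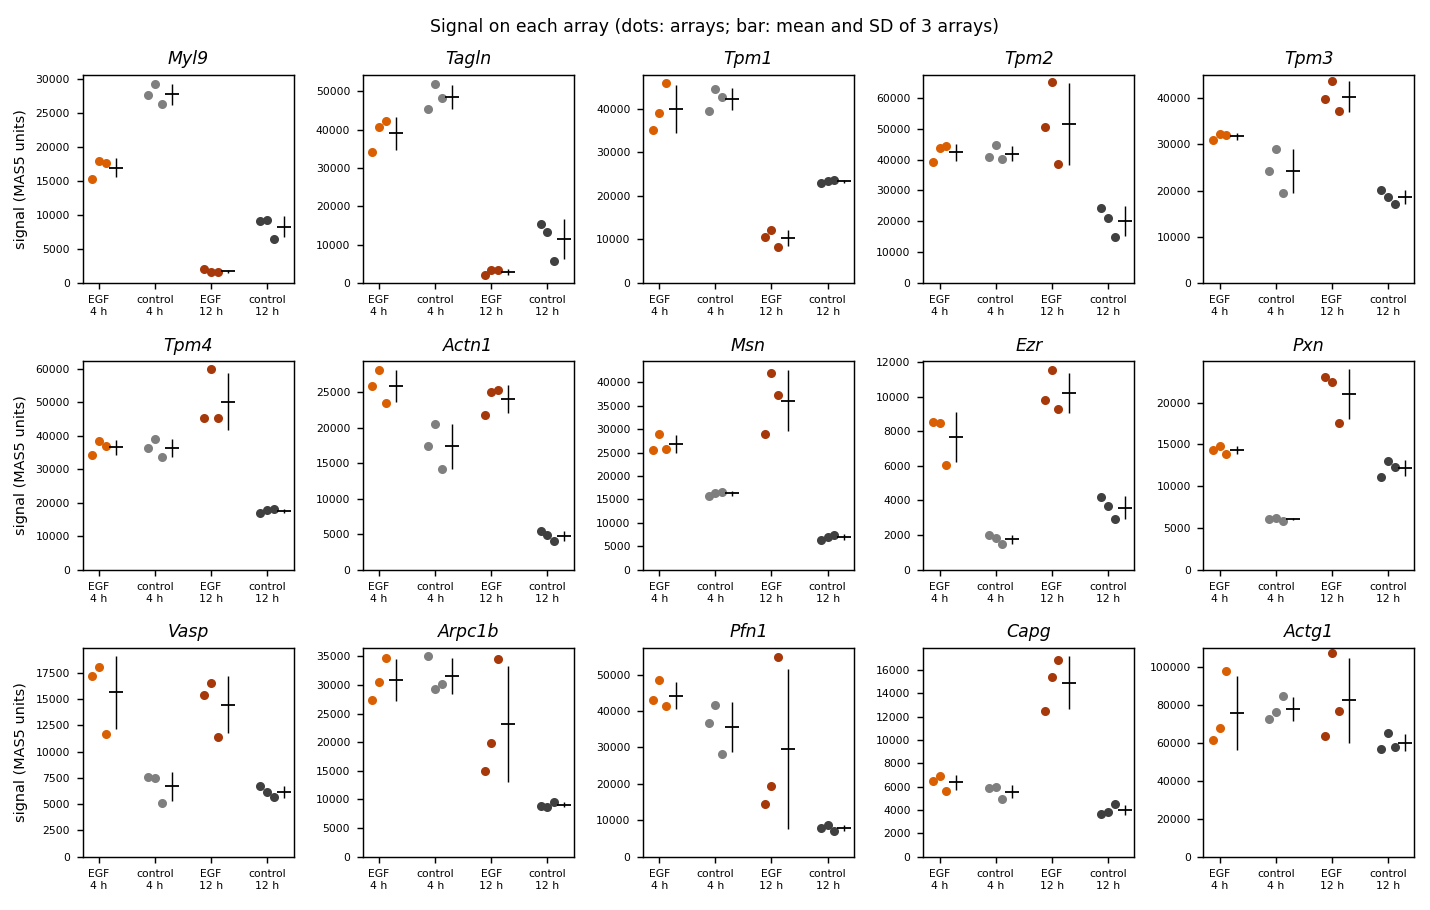
Signal (MAS5 intensity, linear scale from 0) on each of the 12 arrays for 15 genes, with the mean and SD of each group of 3 as a bar beside the dots. EGF is left of its control at each time. EGF replicate 3 at 12 h stands apart for Pfn1 (54831 against 14358 and 19402), and control levels differ between the 2 experiments for Myl9, Tagln and Actn1.

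The rule set contractile genes against motility genes. The contractile class held 18 genes: the 12 thin filament and myosin II genes, Actn1, Vcl, Zyx, Rhoa, Rock1 and Rock2. The motility class named 19, of which 17 were measured: the nucleation, elongation, monomer, severing and capping genes, the ERM genes, Fscn1, Rac1, Cdc42 and Limk1. With 12 h of EGF, 7 contractile genes rose, 5 fell and 6 did not pass. Of the motility genes 9 rose, 2 fell and 6 did not pass. The shares that passed were 66.7% and 64.7%, against 36.1% of all tested probe sets (15.3% higher and 20.8% lower). At 4 h the counts were 3, 2 and 13 for contractile genes and 3, 2 and 12 for motility genes. Those that passed at 4 h, 27.8% and 29.4%, were near the 27.8% of all tested probe sets. The median log2 fold change at 12 h was 0.39 for contractile and 0.58 for motility genes, and at 4 h -0.025 and 0.11.

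Mean log2 signal of the class was taken on each array as a description, with no test. At 4 h the contractile minus motility difference was 0.46, 0.46 and 0.47 on EGF arrays, against 0.82, 0.81 and 0.85 on control arrays. At 12 h it was -0.39, -0.58 and -0.69 on EGF arrays, against 0.13, 0.24 and -0.16 on control arrays. The EGF arrays were thus below the control arrays at both times, with gaps of -0.37 and -0.63 on the log2 scale and pooled SDs of 0.016 and 0.18. At 4 h most of this came from the motility class, whose mean was higher with EGF by 0.29, while the contractile mean differed by -0.077. At 12 h the motility mean was higher by 0.78, more than the gap, as the contractile mean was higher too, by 0.16. In the contractile class at 12 h, the falls of Myl9, Tagln and Tpm1 stood beside the rises of Actn1, Tpm4 and Tpm2.

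**Figure D4:**
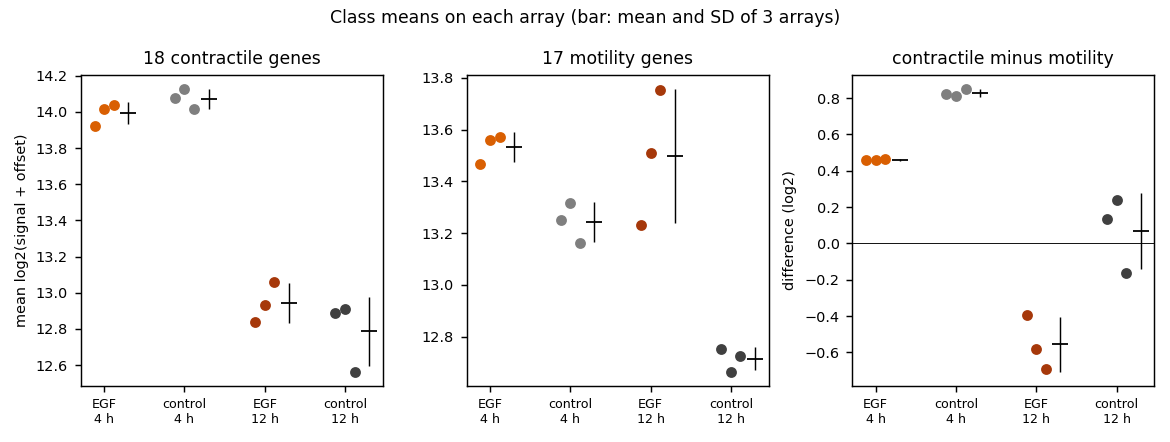
Mean log2(signal + offset) of the 18 contractile genes (left), the 17 motility genes (middle) and their difference (right) on each array, with the mean and SD of each group of 3 as a bar. EGF arrays lie below controls in the difference at both times (0.46 against 0.83 at 4 h, -0.55 against 0.071 at 12 h), and the axes do not start at 0.

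Whether EGF acted alike at both times was tested as a difference of effects. The difference between the effects, 12 h minus 4 h, passed the threshold for 12 of the 42 genes (28.6%), against 11.6% of all probe sets. It was positive for 9 (5.45% of all probe sets) and negative for 3 (6.11%), and at least 2-fold for 6 and 3, against 7.68%. Of the 12417 probe sets above the 60th percentile of mean signal, tested alone, it was positive for 1018 and negative for 1134. The positive ones were Actn1 (1.75), Capg (1.70), Msn (1.65), Tpm4 (1.49), Tpm2 (1.34), Arpc1b (1.30), Flna (0.96), Tpm3 (0.71) and Lasp1 (0.67). Tagln (-1.56), Myl9 (-1.52) and Tpm1 (-1.10) were negative. Ezr and Pxn, which had the 2 highest rises past the threshold at 4 h, were at -0.59 and -0.46, and Vasp was at -0.0097; none of them passed. The times come from separate experiments with different sets of arrays, so time and experiment cannot be told apart in these differences.

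The controls of the 2 experiments differed from each other in most of these genes. Between control at 12 h and control at 4 h, 25 of the 42 passed (59.5%), 3 higher and 22 lower, against 45.4% of all probe sets (23.8% higher and 21.7% lower). The share was larger among bright probe sets here too. Of the 12417 above the 60th percentile of mean signal, tested alone, 3729 were higher and 3040 lower. At least 2-fold differences numbered 2 higher and 16 lower, against 21.6% of all probe sets. Arrays did not overlap for 4 higher and 27 lower genes, against 62.3% of all probe sets. The median log2 fold change was -0.76, where that of all probe sets was 0.077. Among contractile genes none were higher and 13 of 18 were lower, and among motility genes 2 were higher and 6 of 17 lower. The contractile minus motility difference was 0.071 in 12 h controls, against 0.83 in 4 h controls, a gap of -0.76.

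On the brightest probe set the widest differences were those of Acta2 and Cnn1. Acta2 averaged 950.4 ± 327 in 12 h controls and 17326 ± 4746 in 4 h controls (SD, n = 3 each), a log2 fold change of -4.18 (SE 0.32, adjusted p = 1.33e-06). Cnn1 averaged 290.1 ± 179 in 12 h controls and 2091 ± 256 in 4 h controls, a log2 fold change of -2.98 (SE 0.45, adjusted p = 2.56e-04). Tagln was at -2.21 and Myl9 at -1.76. Also lower were Pfn1 (-2.17), Rock1 (-1.93), Actn1 (-1.85) and Arpc1b (-1.80). The probe set that Tmsb10 shares with a pseudogene averaged 646 ± 202 in 12 h controls and 33782 ± 15527 in 4 h controls, a log2 fold change of -5.59 (SE 0.69, adjusted p = 6.78e-05). Those that were higher in 12 h controls were Ezr (1.01), Pxn (1.00) and Gsn (0.43). Time in culture, experiment and set of arrays cannot be told apart here. The comparison shares its controls with both EGF comparisons, so the lower values of the 12 h controls and the rises with EGF at 12 h use the same 3 control arrays. For Actn1, for example, the group means were 25885 ± 2294 with EGF and 17417 ± 3187 without at 4 h, and 24105 ± 1984 with EGF and 4789 ± 689 without at 12 h.

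The comparison between controls, and to a lesser extent EGF against control at 12 h, depended on which probe set of a gene was read. For 20 of the genes a second tested probe set existed. In the comparison between controls the second brightest was lower than the brightest for 17 of 20 genes, by more than 1 on the log2 scale for 12, with a median gap of -1.66 and a range of -4.39 to 0.89. For EGF against control the second brightest was lower for 7 of 20 genes at 4 h and for only 3 of 20 at 12 h. No gap was below -1 at either time, and 1 was above 1 (Rac1 at 12 h). The median gap was 0.037 at 4 h and 0.65 at 12 h. The sign was the same for 19 of 20 genes at 4 h, 17 at 12 h and 15 between controls. Lasp1, Rac1 and Rdx, which did not pass between controls on the brightest probe set, were at -4.15, -1.94 and -2.27 on the next. The 3' to 5' ratios above differ between the same control groups, and at 12 h between EGF replicate 3 and the other arrays. Their part in the gaps was not tested.

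**Figure D5:**
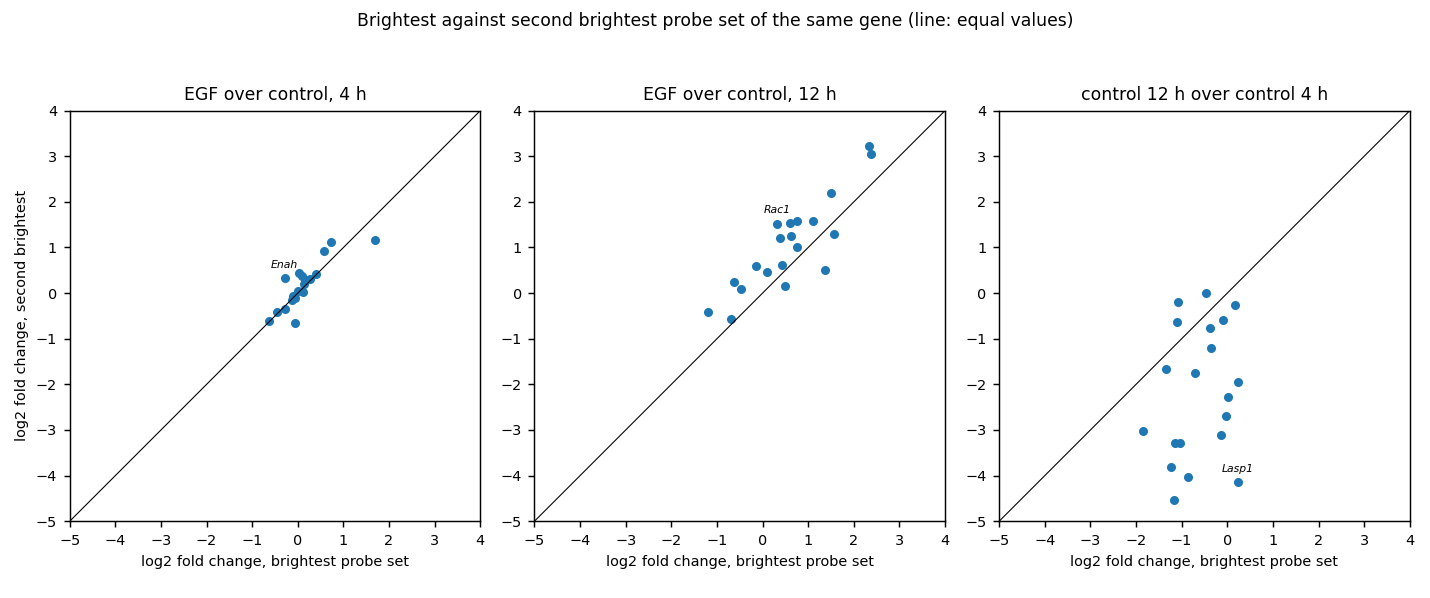
Log2 fold change on the brightest probe set (horizontal) against the second brightest (vertical) of the same gene, for the 20 genes with 2 or more tested probe sets, in EGF against control at 4 h (left) and 12 h (middle) and in control at 12 h against control at 4 h (right). The line marks equal values, and the gene with the widest gap in each panel is named. Below the line lie 7 of 20 points at left, 3 in the middle and 17 at right.

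Beyond the 42 genes, 93 further actin-related genes were listed, of which 83 had a probe set and 76 were tested. With EGF, 14 of them rose and 10 fell at 4 h, and 26 rose and 13 fell at 12 h, with medians of -0.078 and 0.16. These were 31.6% and 51.3% of the 76, against 27.8% and 36.1% of all probe sets. By group, unconventional myosins had 4 of 7 higher at 12 h and none lower, and turnover, capping and disassembly factors 8 of 16 higher and 1 lower. The further Arp2/3 subunits and activators had 4 of 13 higher and 1 lower, formins 3 of 6 higher and 1 lower, and cross-linkers and adaptors 5 of 19 higher and 7 lower. Smooth muscle contractile genes had 1 of 8 higher and 3 lower, and myosin light chains with their phosphatase 1 of 4 higher. Baiap2, the membrane-bending IRSp53, averaged 5037 ± 306 with EGF and 414.3 ± 9.14 in controls at 4 h, a log2 fold change of 3.53, and was at 2.58 at 12 h. Also at 4 h, Myo1e and Flnc rose by 1.89 and 1.30 and Pdlim2 fell by 1.43. At 12 h Pdlim1 and Wdr1, a partner of cofilin, rose by 2.43 and 1.49, and Fhl1 fell by 1.96. Srf, serum response factor, and its cofactor Mrtfa passed at neither time: Srf was at -0.22 and 0.29 and Mrtfa at -0.12 and 0.14.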

How the data were processed

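RNA of all 12 samples was analysed. MAS5 made the intensity that the authors deposited for each probe set, which is linear, per the submitters' processing notes. Its version and scaling target were not given in the sources used here. On every array the trimmed mean (2% at each end) lay between 1500.46 and 1500.56, so the arrays share a scale. For arrays, their number limits the precision, and the median SE of an EGF effect was 0.23.

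Of 31099 probe sets, 57 controls were left out, and the 18625 whose mean reached the 40th percentile (215.4) entered the tests. Values of log2(intensity + 24.4) on each array, the offset being the 10th percentile, went into limma 3.58.1 under R 4.3.3. The fit had group as its only factor (lmFit and eBayes with a trend, 8 residual degrees of freedom). Tests were two-sided, and adjusted p values are limma's with Benjamini-Hochberg adjustment over all tested probe sets. The fit was tested on simulated data. Figures were drawn with matplotlib 3.10.9.

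Genes and lists were chosen with earlier results of these data known. Every gene with a probe set of its own is described, and those past the threshold with a log2 fold change of at least 1 in size, and Actg1, with all arrays. Probe sets were named from the platform annotation (20843 with 1 symbol, 425 with several and 9831 with none). The fold behind a 2-fold count is on the log2(intensity + offset) scale.

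Pairing was checked because EGF and control arrays share replicate numbers. After removal of group means, same-numbered arrays correlated at 0.12, 0.15 and 0.38 at 4 h, and at 0.083, -0.11 and -0.10 at 12 h. Those at 4 h were over the limit of 0.1. But EGF replicate 1 with control replicate 2, and EGF replicate 2 with control replicate 1, also reached 0.14 and 0.14 at 4 h. Replicate 3 of either group was at -0.25 to -0.20 with replicates 1 and 2 of the other. The numbers thus set the replicate 3 pair apart at 4 h and do not show pairing of replicates 1 and 2, or of the 12 h arrays. The alternatives changed scaling, offset, filter, trend, arrays, blocks and probe sets.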

Additional observations from a re-analysis of the deposited data

Results flagged for a closer look

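The effect of EGF differed between the experiments by limma's test of the difference, 12 h minus 4 h on the log2 scale, for 12 genes. Tagln (-1.56), Myl9 (-1.52) and Tpm1 (-1.10) had more negative effects at 12 h. Actn1 (1.75), Capg (1.70), Msn (1.65), Tpm4 (1.49), Tpm2 (1.34), Arpc1b (1.30), Flna (0.96), Tpm3 (0.71) and Lasp1 (0.67) had more positive ones. Of the 12, Tpm1, Flna, Msn, Tpm4, Tpm2, Myl9, Capg and Actn1 passed under each of the 22 alternatives that read the same probe set. On the second brightest probe set Tpm4 and Actn1 passed as well. There Tpm1 (-0.32, adjusted p = 0.760), Tpm2 (0.061, adjusted p = 0.958) and Msn (1.92, adjusted p = 0.232) did not pass. Tagln, Tpm3, Arpc1b and Lasp1 lost the call under at least 1 of the 22. Tpm3 lost it without any 1 of 9 arrays (adjusted p from 0.0579 to 0.0949), Tagln without any 1 of 8 (0.0501 to 0.0814) and Arpc1b without any 1 of 2 (0.0515 and 0.0524). Time, experiment and set of arrays cannot be told apart in these differences.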

How the results depend on the processing

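On the same probe set, 5 of 11 calls at 4 h (Ezr, Msn, Pxn, Vasp and Myl9) and 21 of 26 at 12 h held under each of 23 alternatives, and 21 of 25 between controls under each of 21. None of these calls reversed. The count at 4 h, 11, became 17 when the array set was a block (at 12 h, 26 became 32), 6 without the replicate 3 pair (4 higher and 2 lower) and 6 with the second brightest probe set. At 4 h, 7 higher and 4 lower became 7 and 1 with median centring, and the split of all probe sets, 2118 higher and 3068 lower, became 2667 and 1522 with it and 2406 and 2703 with quantile normalization. Higher calls at 4 h numbered 4 without EGF replicate 2 or control replicate 3. Leaving out 1 array at a time, counts ran from 8 to 13 at 4 h, 24 to 29 at 12 h, 9 to 16 for the difference and 22 to 30 between controls. The contractile minus motility difference ran from -0.38 to -0.36, from -0.74 to -0.54 and from -0.84 to -0.64 at 4 h, at 12 h and between controls. With the second brightest probe set it was -0.34 at 4 h, and the sign turned for Enah at 4 h (0.32), for Enah (0.24), Pfn2 (0.090) and Rdx (0.59) at 12 h and for Rac1 (-1.94), Lasp1 (-4.15), Rdx (-2.27), Enah (-0.26) and Cald1 (0.0068) between controls; the cause was not tested. With the replicate number as a block, 11 genes passed at 4 h, 28 at 12 h, 11 for the difference and 28 between controls. This block changed no call at 4 h. At 12 h Actg1 and Cdc42 also passed (adjusted p = 0.0484 and 0.0271). A block for the array set could not be fitted between controls, whose arrays share no set. Dim genes such as Limk1 had wide errors (SE 0.49), and with 3 arrays a group a p over the threshold does not show that values were alike.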
